A study of Homo sapiens with 5 samples.

Results

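The miR-200 family was followed through 5 of the 734 miRNA probes of the panel, those for hsa-miR-200a, hsa-miR-200b, hsa-miR-429, hsa-miR-200c and hsa-miR-141 (written below without the species prefix). The members were chosen by name, as the mature products of the MIR200B/MIR200A/MIR429 and MIR200C/MIR141 clusters, and all 5 were found. They were counted in the human colon carcinoma line Caco2, whose cells polarise and join into an epithelial layer, after transduction and selection with a non-target shRNA (NT, n = 2, replicates 1 and 3) or with an shRNA against PLEKHA7 (shPLEKHA7, n = 3, replicates 1 to 3), a protein of the adherens junction. Every culture therefore carried an shRNA, and by the sample titles the knockdown cells carried a targeting sequence against PLEKHA7 alone. The series design describes separate infections as the source of the RNA, and the comparison asks how PLEKHA7 depletion affects miRNA levels. The knockdown itself was not analysed here. The source field of shPLEKHA7 replicates 2 and 3 carries another PLEKHA gene number, and the titles were followed.

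The family is known as a guardian of epithelial identity. Its members repress ZEB1 and ZEB2, transcriptional repressors of E-cadherin, and ZEB1 and ZEB2 in turn bind and silence the promoters of both miR-200 clusters, so that in general epithelial cells hold high miR-200 levels and mesenchymal cells low ones. E-cadherin is the transmembrane core of the junction to which PLEKHA7 belongs. A miRNA finds its targets mainly through its seed, bases 2 to 8 from the 5′ end, and the family holds a pair of seeds that do not coincide with the pair of clusters.

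The mature sequences, which define what each probe counted, are shown with the seed in capitals. The target sequence of each probe equalled the RefSeq mature sequence over its whole length (T read as U), and coordinates are those of the RefSeq miRNA table, build GRCh38.p14, plus strand.
miR-200b: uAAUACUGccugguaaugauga
miR-200c: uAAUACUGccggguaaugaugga
miR-429: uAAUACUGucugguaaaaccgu
miR-200a: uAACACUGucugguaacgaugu
miR-141: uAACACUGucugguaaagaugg
miR-200b (chr1:1167160-1167181), miR-200a (chr1:1167916-1167937) and miR-429 (chr1:1169055-1169076) lie within 1917 bases, inside the span of the long non-coding RNA gene MIR200BHG. miR-200c (chr12:6963742-6963764) and miR-141 (chr12:6964155-6964176) lie within 435 bases, inside MIR200CHG. No other miRNA gene lies inside either cluster (0 in each) in the RefSeq gene table of the same assembly.

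The seed AAUACUG was carried by 3 human probes of the panel, miR-200b, miR-200c and miR-429, and the seed AACACUG by 2, miR-200a and miR-141, so each seed was found on family probes only. The seeds differ at 1 base, C4U from miR-200a to miR-200b, counted from the 5′ end. Over the first 22 bases, 14 positions were identical in all 5 members. The most alike pairs came from different clusters. miR-200b and miR-200c shared 20 of 22 bases and differed by U11G and A22G, and miR-200a and miR-141 also shared 20 and differed by C17A and U22G. Among the other human probes, the closest to a member in an ungapped comparison matched 12 or 13 of 22 bases. How far each probe counts its near-identical relative was not tested. The probes of miR-200a, miR-200b, miR-200c and miR-141 match the 3′ arm of the hairpin. No human probe of the panel matched the 5′ arm product of miR-200a, miR-200b or miR-200c, and that of miR-141 was not analysed here.

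The assay counts a fluorescent barcode for each bound target, without amplification. Total miRNA counts were 34942 and 50372 under NT and 32138 to 58298 after PLEKHA7 depletion. The limit of detection, the mean plus 2 SD of the 8 negative-control probes of a lane, ran from 11 to 24.45 counts. Spike-in totals were 7686 and 10656 in the NT lanes against 10670 to 14239 in the shPLEKHA7 lanes, and the numbers that end the deposited lane names place both NT lanes before all shPLEKHA7 lanes, so lane order and group cannot be told apart. In the intestinal marker list, miR-192 and miR-194, miRNAs of the intestinal epithelium, were above the limit in all 5 lanes, at 399 ± 27.1 and 132 ± 2.9 normalized counts in NT (SD, n = 2), whereas miR-215 was above it in 3 of 5.

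All 5 members were expressed in Caco2 cells, above the limit of detection in all 5 lanes. Levels below are counts scaled between lanes by TMM (trimmed mean of M values), and since each probe has its own capture efficiency, the order of members describes barcode counts and not molecules. miR-200c was the most counted member, ranking from 9 to 11 among the 654 human miRNA probes of each lane. miR-200b ranked from 21 to 26, miR-141 from 36 to 61, miR-200a from 49 to 66 and miR-429 from 69 to 92. The raw count was 41.5 to 62.9 times the limit of detection for miR-200c, but 1.84 to 3.07 times for miR-429. In each of the 5 lanes miR-200c exceeded miR-200b, which exceeded the other members, and miR-429 was the lowest. The order of miR-141 and miR-200a was not settled: miR-141 was the higher in 4 of 5 lanes and the lower in NT replicate 1, and their NT means were both 97.5.

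Together the members took 3.70% of the miRNA count in NT replicate 1 (Wilson 95% interval 3.51% to 3.90%) and 3.56% in NT replicate 3 (3.40% to 3.72%). In shPLEKHA7 replicates 1, 2 and 3 the share was 3.46% (3.30% to 3.63%), 3.24% (3.05% to 3.44%) and 3.28% (3.14% to 3.43%). All 3 shPLEKHA7 shares were below both NT shares, although 4 of the 6 pairs of an NT and a shPLEKHA7 interval overlap, NT replicate 3 with all 3 shPLEKHA7 lanes and NT replicate 1 with shPLEKHA7 replicate 1. The mean was 3.63% ± 0.10 in NT (SD, n = 2) and 3.33% ± 0.12 in shPLEKHA7 (SD, n = 3). These intervals and those of counts below cover counting error only. In whole cultures, fewer cells with a miRNA and less of it per cell cannot be told apart. The sum was given no test, because it is a score over chosen members.

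No member passed the edgeR quasi-likelihood test between shPLEKHA7 and NT cells at a Benjamini-Hochberg adjusted p under 0.05 (0 of 5). By the same rule 13 of 204 tested miRNA probes passed (6.37%), 2.45% higher and 3.92% lower. At an unadjusted p under 0.05 the count was again 0 of 5, against 48 of 204 (23.5%). DESeq2 and limma, which were run as alternatives, also called no member, but DESeq2 gave miR-429 no adjusted p. The fitted log2 fold change was below 0 for 4 of 5 members and for 43.6% of tested probes, and its median was -0.15 over the members and 0.06 over all tested probes. In miR-200a, miR-200b and miR-200c every shPLEKHA7 lane was below every NT lane, as in 22.1% of tested probes (45 of 204). The miR-200a and miR-200b groups were also apart in the deposited normalized signal, where miR-200c overlapped (2 of 5 members, against 15.7% of tested probes). With total-count scaling it was miR-200b that overlapped (2 of 5, against 18.1%). With spike-in scaling the 3 were apart, against 34.3% of tested probes.

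**Figure D1:**
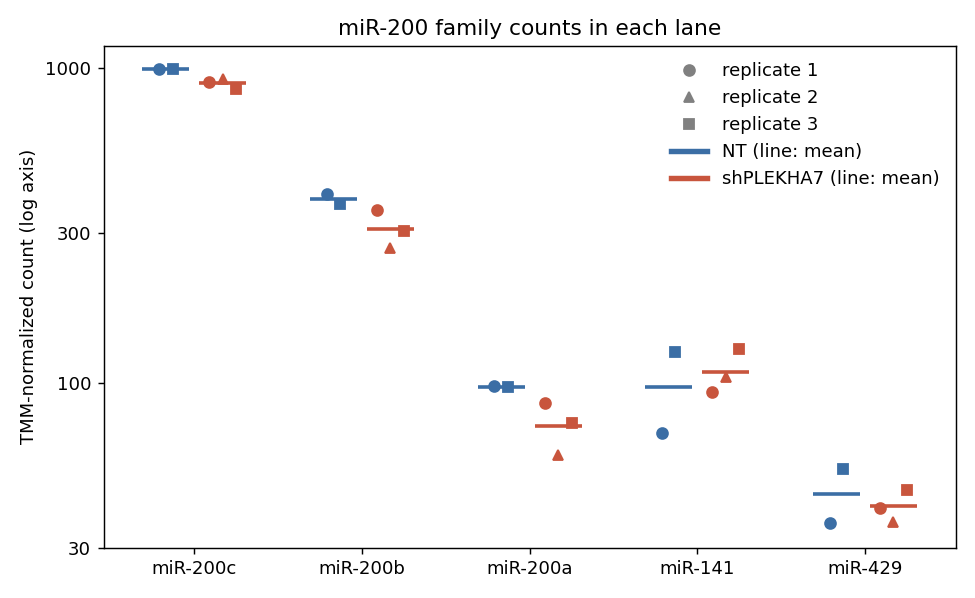
TMM-normalized count (log axis) of each member in the 2 NT (blue) and 3 shPLEKHA7 (red) lanes, with marker shape for the replicate number and a line at the group mean. The groups are apart for miR-200c, miR-200b and miR-200a and overlap for miR-141 and miR-429. The CV of the NT lanes is 40.9% for miR-141 and 27.5% for miR-429, where counting alone gives 11.2% and 16.1%.

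miR-200c, the abundant member of the chromosome 12 cluster with the seed AAUACUG, was counted at 997 in both NT lanes. Counts were 903, 928 and 859.8 in shPLEKHA7 replicates 1, 2 and 3. The shPLEKHA7 lanes were all lower, by a small margin. The mean was 997 ± 0.2 in NT (SD, n = 2) and 897 ± 34.5 in shPLEKHA7 (SD, n = 3), a log2 fold change of -0.15 (SE 0.12, 95% interval -0.42 to 0.11, edgeR adjusted p = 0.50). The NT lanes differed by 0.0153% of their mean as a coefficient of variation (CV), below the 3.29% that counting alone gives for such counts, so that SD does not measure the spread between cultures.

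miR-200b, which has the same seed but belongs to the chromosome 1 cluster, had normalized counts of 399.6 and 369.8 under NT. It was at 355, 269.5 and 303 in shPLEKHA7 replicates 1, 2 and 3. Replicate 2 was the lowest lane and shPLEKHA7 replicate 1 came close to NT replicate 3. The log2 fold change was -0.31 (SE 0.15, 95% interval -0.64 to 0.03, edgeR adjusted p = 0.24).

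miR-200a, the neighbour of miR-200b with the other seed, had normalized counts of 97.7 and 97.3 under NT. Their CV of 0.35% was below the 10.5% that counting alone gives, so their closeness does not measure the spread between cultures. The knockdown counts were 86.3, 59.0 and 74.5 in shPLEKHA7 replicates 1, 2 and 3. The lowest lane was again shPLEKHA7 replicate 2, the shallowest library, with a raw count of 44 (95% Poisson interval 32.0 to 59.1). The log2 fold change was -0.39 (SE 0.18, 95% interval -0.81 to 0.02, edgeR adjusted p = 0.23). It was the largest of the family in size and ranked 81 of 204 by size among tested probes. Without shPLEKHA7 replicate 2 it was -0.29, and that of miR-200b -0.24.

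miR-429, the third product of the chromosome 1 cluster, had normalized counts of 35.9 and 53.2 under NT. After the knockdown they were 40.1, 36.2 and 45.8 in shPLEKHA7 replicates 1, 2 and 3. All shPLEKHA7 values lay between the NT values. The log2 fold change was -0.14 (SE 0.23, 95% interval -0.65 to 0.37, edgeR adjusted p = 0.76), and without NT replicate 3 it turned to 0.24. With raw counts of 27 to 62, counting alone gave a CV of 16.1% in NT and 15.85% in shPLEKHA7, against 3.29% and 3.31% for miR-200c.

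miR-141, the partner of miR-200c in the chromosome 12 cluster, had normalized counts of 69.3 and 125.7 under NT. It was at 93.5, 105 and 128 in shPLEKHA7 replicates 1, 2 and 3, of which the first 2 lay between the NT lanes. The log2 fold change was 0.14 (SE 0.25, 95% interval -0.42 to 0.70, edgeR adjusted p = 0.76). This sign rested on the choice of lanes and scaling. It was -0.20 without NT replicate 1, 0.70 without NT replicate 3, -0.01 without shPLEKHA7 replicate 3 and -0.17 under spike-in scaling. The raw NT counts were 56 (95% Poisson interval 42.3 to 72.7) and 137 (115 to 162), in lanes of unequal depth. After scaling, the NT CV of miR-141 was 40.9%, above the 11.2% that counting alone gives. Of the tested probes, 89.2% had an NT CV at or below it.

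**Figure D2:**
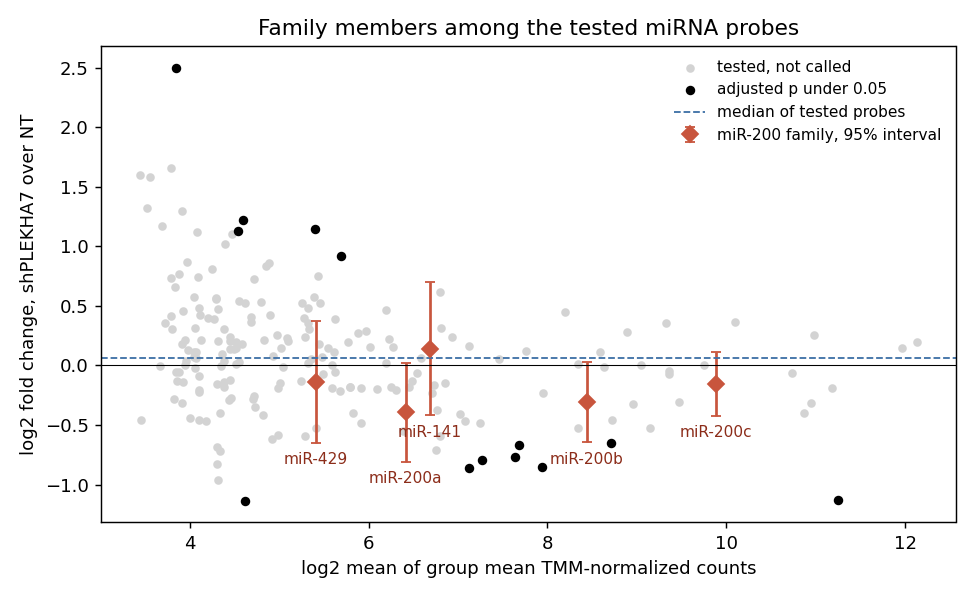
Log2 fold change of shPLEKHA7 over NT for the 204 tested miRNA probes against the log2 mean count. Black points passed an adjusted p under 0.05, the dashed line is the median of 0.06, and diamonds with 95% intervals are the members. Each member's interval includes 0, and all 5 members lie within the cloud of probes that were not called.

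Changing the scaling shifts the log2 fold change of every probe by nearly the same amount. The family's position against the panel could therefore hardly move, and only its position against 0 did. Spike-in scaling, which shifted the median of all tested probes from 0.06 to -0.27, put all 5 members below 0 and called a member, which the other 11 alternatives keeping all samples did not. The member called was miR-200a, at log2 -0.73 (SE 0.27, edgeR adjusted p = 0.0473, the adjusted p running from 0.0473 to 0.534 over the 12 alternatives), where 29 of 204 probes were called lower (14.2%). Relative to the panel median, miR-200a was at -0.45 under TMM, -0.45 under total counts and -0.45 under spike-in scaling. miR-200b was at -0.37 under each of the 3. miR-141 was above the panel median under these scalings, at 0.08, 0.09 and 0.10. Relative to the median of the probes tested there, it was at -0.02 with no filter and at -0.32 without NT replicate 1. The spike-in totals of the groups, given above, were apart only narrowly, with 10656 in NT replicate 3 and 10670 in shPLEKHA7 replicate 2. Their part in the spike-in result was not tested.

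**Figure D3:**
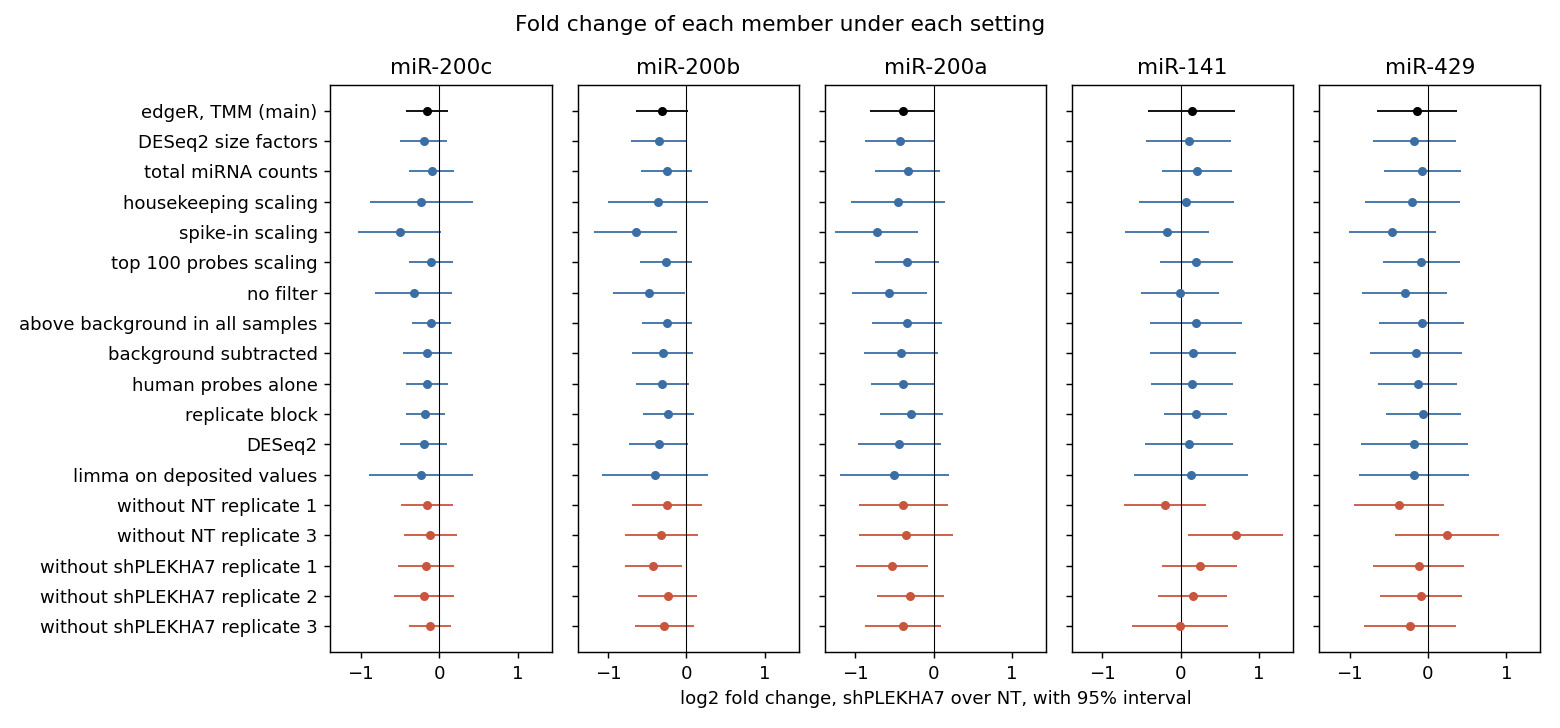
Log2 fold change of shPLEKHA7 over NT with its 95% interval for each member, in the TMM fit (black), in 12 alternatives that keep all 5 samples (blue) and with each sample left out (red). miR-200a and miR-200b stay below 0 throughout, while miR-141 and miR-429 change sign with the NT lane left out.

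Ratios within a lane need no scaling between lanes and show how the members varied against each other. The summed chromosome 1 cluster was counted at log2 -1.0 and -1.11 relative to the summed chromosome 12 cluster in the NT lanes. In shPLEKHA7 replicates 1, 2 and 3 this log2 ratio was -1.05, -1.50 and -1.22. The groups overlapped, with means of -1.06 ± 0.08 (SD, n = 2) and -1.26 ± 0.23 (SD, n = 3). Without shPLEKHA7 replicate 2 the difference went from -0.20 to -0.08. By seed, the AAUACUG members exceeded the AACACUG members by log2 3.10 and 2.67 under NT, and the knockdown lanes gave 2.85, 2.92 and 2.57, again with overlap. The difference of -0.11 turned to 0.11 without NT replicate 1. The AAUACUG members made up 85.6% to 89.6% of the family's counts in a lane.

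Among the 10 pairs of members, the ratio of miR-200b to miR-200a had the lowest SD over the lanes. It lay between log2 1.93 and 2.19 in all 5 lanes, an SD of 0.09 where counting alone would give about 0.18. Being below counting error, that SD does not measure how closely miR-200b and miR-200a varied together. These miRNAs share a cluster but not a seed, and both were low in shPLEKHA7 replicate 2. miR-200c and miR-141 also share a cluster, and their ratio had an SD of 0.41 against 0.15 from counting alone, from log2 3.85 in NT replicate 1 to 2.74 in shPLEKHA7 replicate 3. The median SD was 0.31 over the 4 pairs within a cluster and 0.26 over the 6 pairs across clusters. By seed it was 0.28 over the 4 pairs that share one and 0.29 over the 6 that do not. By these medians neither shared cluster nor shared seed went with a steadier ratio, as a description over pairs that share members. The SD from counting alone also differed between pairs, from 0.09 for miR-200c over miR-200b to 0.28 for miR-200a over miR-429. The medians do not allow for this, so they cannot decide whether members of a cluster or seed group varied together.

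In 1 of the 10 pairs the groups did not overlap. The log2 ratio of miR-200c to miR-200a was 3.35 and 3.36 under NT. It was 3.39, 3.98 and 3.53 under the PLEKHA7 shRNA. The lowest shPLEKHA7 value lay within counting error of the NT values, since counting alone gives this ratio an SD of 0.17. The largest shift of a pair was that of miR-141 against miR-200a, from a mean of -0.06 ± 0.61 in NT (SD, n = 2) to 0.58 ± 0.40 in shPLEKHA7 (SD, n = 3), between overlapping groups. No ratio was given a test, and the smallest 2-sided exact permutation p for 2 against 3 lanes is 0.1.

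**Figure D4:**
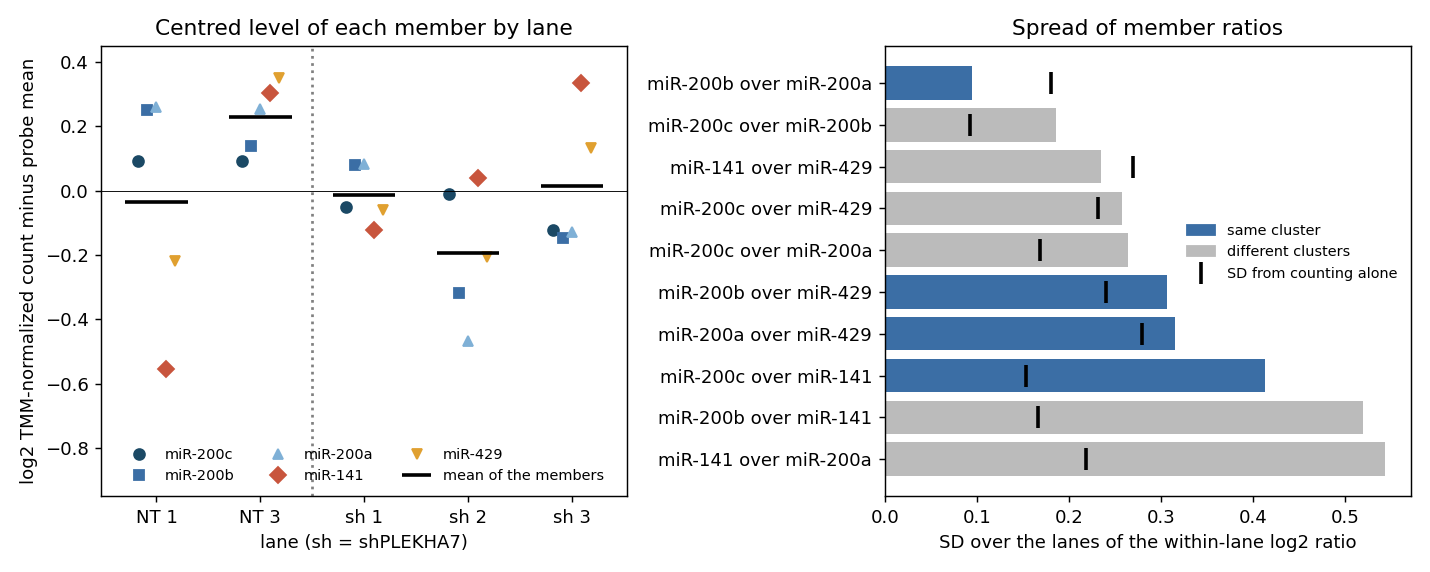
Left, log2 TMM-normalized count of each member minus its mean over the 5 lanes, with a bar at the mean of the members. Right, SD over the 5 lanes of the within-lane log2 ratio for the 10 pairs, blue within a cluster and grey across clusters, with a tick at the SD from counting alone. miR-200b over miR-200a has the lowest SD (0.09), and the highest 3 are pairs with miR-141.

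The family's mean centred profile stood at -0.03 for NT replicate 1 and 0.23 for NT replicate 3 in log2 units. For shPLEKHA7 replicates 1 to 3 it stood at -0.01, -0.19 and 0.01. The tested probes nearest to it, by the root mean square difference over the 5 lanes, were miR-373 (0.07), miR-372 (0.08), miR-107 (0.09), miR-22 (0.09) and miR-31 (0.10), where the median over tested probes was 0.34. None of these 5 passed the edgeR test, with log2 fold changes from -0.31 to -0.19. The same 5 were nearest under total-count and housekeeping scaling, which could not differ, because a lane factor cancels in this difference. Of the members themselves, miR-429 (0.11) and miR-200c (0.13) lay nearest to the family mean, to which each contributes, and miR-141 lay farthest (0.30).

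Other miRNAs of the epithelial and mesenchymal states were read from lists chosen with earlier results of these data known. The epithelial-side list holds miRNAs that ZEB factors repress or that restrain inducers of the transition to mesenchyme. Of its 9 tested probes 1 rose and 1 fell (2.45% and 3.92% of all tested probes did), with a median log2 fold change of -0.26 beside 0.06 for all tested probes. miR-30a, which targets SNAI1, fell from 179 ± 7.1 (SD, n = 2) to 99.8 ± 15.8 (SD, n = 3) normalized counts (log2 -0.86, SE 0.16, edgeR adjusted p = 0.0211). miR-215, a p53-induced relative of miR-192, rose by log2 1.22 (SE 0.31, edgeR adjusted p = 0.048) but its NT counts were below the limit of detection in both lanes, so the size of the rise was not measured. It entered the test only through the 3 shPLEKHA7 lanes, where it was high. Its call, the 1 rise in this list, is therefore given no weight. Not called were miR-96 (log2 -0.52, SE 0.19), miR-205 (-0.46, SE 0.17) and miR-192 (-0.01, SE 0.19).

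The mesenchymal-side list holds miRNAs known to promote that transition or invasion. Of its 8 tested probes 0 rose and 1 fell, beside the same 2.45% and 3.92% of all tested probes, and the median was log2 -0.21 beside 0.06. miR-21, an oncomiR, fell from 3349 ± 992 to 1531 ± 241 normalized counts (log2 -1.13, SE 0.20, edgeR adjusted p = 0.0199). Not called were miR-373 (log2 -0.19, SE 0.12), miR-103 (-0.30, SE 0.12) and miR-221 (-0.23, SE 0.13). miR-103 and miR-107 are known to lower miR-200 levels by repressing Dicer, and miR-107 was at log2 -0.19 (SE 0.17). Leaving out an NT lane leaves that arm with 1 sample, and the spread in such a fit, also for miR-141 and miR-429 above, comes from the knockdown lanes and is taken to hold for NT. Without NT replicate 3 no list call held, with miR-21 at log2 -0.75 (edgeR adjusted p = 0.0644), miR-30a at an adjusted p of 0.0685 and miR-215 at 0.149. Without NT replicate 1 miR-21 was still called and miR-30a and miR-215 were not (0.122 and 0.209). Without shPLEKHA7 replicate 3 miR-215 was not called (0.0874). With all samples kept, miR-30a was not called under housekeeping scaling (0.0709) or by limma on the deposited values (0.100). miR-215 was not called by limma (0.069) or with no filter (0.111). DESeq2 gave it no adjusted p, and it was not tested where probes had to be above background in all samples.

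Of the 12 probes for markers of stromal, blood and endothelial cells, 6 were tested and 0 passed the edgeR test. The stromal miR-143, miR-199a and miR-199b probes were at or below the limit of detection in all 5 lanes, as were miR-150 and miR-451 of blood cells. Above it in all 5 lanes were the endothelial miR-126, the stromal miR-214 and miR-223 and miR-142-5p of blood cells. miR-126 was at 50.8 ± 6.9 normalized counts in NT (SD, n = 2) and 34.3 ± 13.97 in shPLEKHA7 (SD, n = 3), a log2 difference of -0.52 (SE 0.30). miR-214 was at 20.7 ± 3.1 in NT and 37.1 ± 13.5 in shPLEKHA7 (log2 0.84, SE 0.34, edgeR adjusted p = 0.16). miR-223 was at 35.7 ± 3.8 in NT and 44.97 ± 11.4 in shPLEKHA7, and miR-142-5p was at 29.9 ± 8.5 and 31.1 ± 6.2. miR-145 and miR-142-3p were above the limit in 3 of 5 lanes. The summed stromal list was 68.8 and 74.2 normalized counts under NT and 85.5 to 90.8 under the PLEKHA7 shRNA, against 1600 and 1643 for the summed miR-200 family in NT and 1397 to 1478 in shPLEKHA7. Of the 6 stromal probes 4 were at or below the limit in all 5 lanes, so the stromal sum includes background and does not measure stromal signal. The part of these other signals in the family's values was not tested.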

How the data were processed

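The deposited raw table holds barcode counts, whole numbers for each probe in each lane (nCounter Human v2 miRNA panel, per the labels). The authors' other table holds normalized signal values, in which human probe values equalled the raw count times 1 factor per lane. Tested on the values, that factor brought the 5 housekeeping mRNAs to the same geometric mean in every lane. The exporting software is not given in the sources used here. Of 734 miRNA probes, 204 were above background (mean plus 2 SD of 8 negative controls, lane by lane) in 2 or more samples and were tested with edgeR 4.0.16 (R 4.3.3, quasi-likelihood, TMM on tested probes, group as the only term). Benjamini-Hochberg adjustment ran over all 204, and called means an adjusted p under 0.05. SEs were derived from the F statistic and the log2 fold change. Scripts were tested on simulated data. Alternatives used 5 other scalings, DESeq2 1.42.0, limma 3.58.1 on log2 deposited signal with a pseudocount of 1, other filters, background subtraction with a floor of 1, a replicate block and leaving out each sample. Named probes are the members, the 5 nearest in profile and the called and 4 most counted of each list. Members and lists were chosen with earlier results of these data known. Mature sequences came from RefSeq.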

Additional observations from a re-analysis of the deposited data

How the results depend on the processing

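The number of called probes depended on which samples and which scaling were used. The panel had 13 called probes, against 20 under total counts, 33 under spike-in scaling, 6 under housekeeping scaling and 22 with the replicate block, and 0 to 18 with a sample left out (0 without NT replicate 3 and 1 without NT replicate 1, fits in which the spread comes from the shPLEKHA7 lanes alone and 34 and 38 probes had an unadjusted p under 0.05 in edgeR). The split into higher and lower was 5 and 8 under TMM, but 4 and 2 by housekeeping scaling, 11 and 9 by total counts, 4 and 29 by spike-ins and 0 and 9 in DESeq2. No member was called in any alternative except miR-200a under spike-in scaling (log2 -0.73, edgeR adjusted p = 0.0473). miR-141 turned from 0.14 to -0.17 under spike-in scaling and to -0.0096 with no filter. Leaving out each sample in turn gave -0.20 to 0.70 for miR-141 and -0.37 to 0.24 for miR-429. miR-200a, miR-200b and miR-200c kept their direction in all 17 alternatives. The replicate block, which treats equal replicate numbers as paired, called no member and gave miR-200a at log2 -0.29, miR-200b at -0.23, miR-200c at -0.18, miR-141 at 0.19 and miR-429 at -0.06. The labels do not say that numbers mark shared infections, so the numbers were not taken as pairs. The deviations of same-numbered samples from their group means correlated at 0.0178 and 0.145 over 204 probes. Those of NT replicate 1 and shPLEKHA7 replicate 2 correlated at 0.137. With 2 NT lanes the NT deviations mirror each other, so these values cannot decide whether the samples were paired. The family's share stayed lower in shPLEKHA7, with differences of -0.37 to -0.23 percentage points with a sample left out. Depth limits miR-429 most, at raw counts of 27 to 62.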
